A study of Mus musculus with 7 samples.

Results

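The Toll-like receptors are a family of innate immune sensors, and 10 of their mouse genes were followed here by symbol (Tlr1, Tlr2, Tlr3, Tlr4, Tlr5, Tlr6, Tlr7, Tlr8, Tlr9 and Tlr13) among the 50686 genes that the quantification lists. Each matched a single row, and all 10 passed the count filter described with the comparison. The libraries came from microglia of C57BL/6 male mice, 4 young (3 to 4 months) and 3 old (21 to 22 months). For these mice no transgene was named, and no drug beyond the anesthesia and analgesia of surgery. All 7 mice had undergone transient occlusion of the middle cerebral artery, a model of ischemic stroke, and their microglia were sorted on day 4 as CD11b+ CD45low cells stained by Bodipy, a dye of neutral lipids. There was therefore no uninjured group, and every value below comes from cells sorted as lipid-laden microglia of the ischemic brain. Polyadenylated RNA of each mouse was amplified by a Smart-seq2 protocol without strand information and gave 1 library per mouse.

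Each receptor has an ectodomain of leucine-rich repeats that binds a microbial or damage-derived ligand and a cytoplasmic domain that recruits the adaptors MyD88 or TRIF. Tlr1, Tlr2, Tlr4, Tlr5 and Tlr6 reach the cell surface and bind lipopeptides, lipopolysaccharide or flagellin, whereas Tlr3, Tlr7, Tlr8, Tlr9 and Tlr13 are delivered to endosomes and bind nucleic acids. Signalling ends in NF-kB and interferon regulatory factors, which turn on cytokine and chemokine genes. Microglia carry many of these receptors and use them to sense infection and the debris of dying cells.

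The libraries held between 45379786 and 53002386 expected counts in young mice and between 36574083 and 46133564 in old mice. Their microglial identity was examined with 9 markers (Tmem119, P2ry12, Cx3cr1, Sall1, Csf1r, Fcrls, Siglech, Aif1 and Itgam), all of which were present in every library, with Fcrls the highest by mean TPM. The summed level of these markers lay between 11812 and 19390 CPM (counts scaled to library size with TMM factors) in 6 libraries and at 6772 CPM in the old library 3posI. That same library stood apart for 7 markers of infiltrating monocytes and macrophages, whose sum reached 2727 CPM against 179 to 474 CPM in the others. Within that list, Chil3 stood at 1385 CPM in 3posI and at 7.55 to 66.9 CPM elsewhere, and Ccr2, the chemokine receptor of inflammatory monocytes, at 224 CPM against 2.01 to 18.8 CPM. In 2posI, 3posI and 4posI, Ly6c2 (14.9, 158 and 9.33 CPM) and Plac8 (6.71, 83.7 and 11.3 CPM) lay above every young library. Their young ranges were 0.911 to 2.77 CPM and 0.896 to 4.44 CPM, with adjusted p values of 0.0554 and 0.0856 by edgeR. The other markers of the list overlapped between the ages. The 6 markers of border-associated macrophages summed to 1050 CPM in 3posI and to 67.9 to 354 CPM in the others. The defining markers of microglia were thus present throughout, with the lowest sum in 3posI. Among the young libraries 23C had the lowest sum, 11812 CPM, and the lowest level of all 7 libraries for Siglech (122 CPM against 180 CPM in 3posI), Aif1 and Itgam. P2ry12 stood at 428 CPM in 23C and 331 CPM in 3posI, against 1091 to 1719 CPM in the other 5. The fold changes of the receptors are given with and without 3posI where that library moved them. Among other cell types, the 8 neutrophil markers, led by S100a8, summed to 127 CPM in the young library 29C and 161 CPM in 3posI and to 16.5 to 60.3 CPM elsewhere. The 5 dendritic cell markers, led by Cd209a, summed to 3.85 to 6.68 CPM in young and 8.52 to 14.9 CPM in old mice, with the old libraries above the young. Of this list only Cd209a had every old library above every young one. Flt3 and Clec9a also had higher old means (log2 changes 2.35 and 2.00), and in 3posI Flt3 (6.53 CPM) was above Cd209a (4.94 CPM). Zbtb46 and Xcr1 had lower old means (log2 changes -0.81 and -0.48), and Zbtb46 was above Cd209a by CPM in every young library. Astrocyte markers, led by Gfap, summed to 14.6 to 72.6 CPM in young and 10.6 to 77.0 CPM in old mice, and oligodendrocyte markers, led by Mbp, to 23.6 to 32.2 CPM and 23.6 to 45.1 CPM. B cell markers summed to 9.23 to 21.9 CPM, nearly all of it Cd79b, while Pax5 was at 0 in every library. T and NK cell markers, led by Cd4, summed to 1.30 to 10.2 CPM. Of these, Cd8a was at 0 to 0.0191 CPM in young and 0.276, 0.248 and 0.504 CPM in old mice, with at most 24 counts in a library. Cd3e had 22 counts in 3posI, 21 in 4posI, 0 in 2posI and at most 1 in a young library. The 4 endothelial markers, led by Cldn5, all had lower old means and summed to 48.8 to 95.1 CPM in young and 39.3 to 52.0 CPM in old mice. Among them Pecam1 did not overlap, at 14.9 to 19.4 CPM in young and 8.45, 11.4 and 12.05 CPM in old mice. The neuron markers summed to 0.645 to 3.12 CPM. The part of these cells in the receptor values was not tested. In bulk libraries such as these, fewer cells of a type and less RNA per cell cannot be told apart.

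Levels of different receptors were compared in TPM, which scales counts by transcript length as well as by library size. Tlr2 was the most abundant receptor, with a mean of 413 ± 113 TPM (SD, n = 7) and values between 212 and 557 TPM. Tlr7 (123 ± 28.5 TPM) and Tlr13 (92.4 ± 11.8 TPM) followed. The lowest Tlr2 library was above the highest Tlr7 library, whereas Tlr7 and Tlr13 overlapped, with Tlr7 the higher in 6 of 7 libraries. A gap separated Tlr13 from the next receptor, Tlr1 (26.1 ± 2.50 TPM), and the ranges did not overlap. Below it, Tlr3 (21.3 ± 6.86 TPM), Tlr4 (16.7 ± 3.83 TPM) and Tlr6 (14.3 ± 2.69 TPM) followed in an order that overlapped between each pair of neighbours. Tlr8 (8.01 ± 8.92 TPM) and Tlr9 (7.48 ± 3.38 TPM) could not be ordered, since Tlr8 was above Tlr9 in only 2 of 7 libraries, and without 3posI the mean of Tlr8 was 4.8 ± 3.05 TPM and that of Tlr9 7.24 ± 3.64 TPM (n = 6). Tlr5 was the lowest receptor, at 1.42 ± 0.942 TPM, and lay below Tlr9 in 7 of 7 libraries although their ranges overlapped. The first 7 ranks were the same in the means of young and of old mice, and only Tlr8 and Tlr9 changed places.

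**Figure D1:**
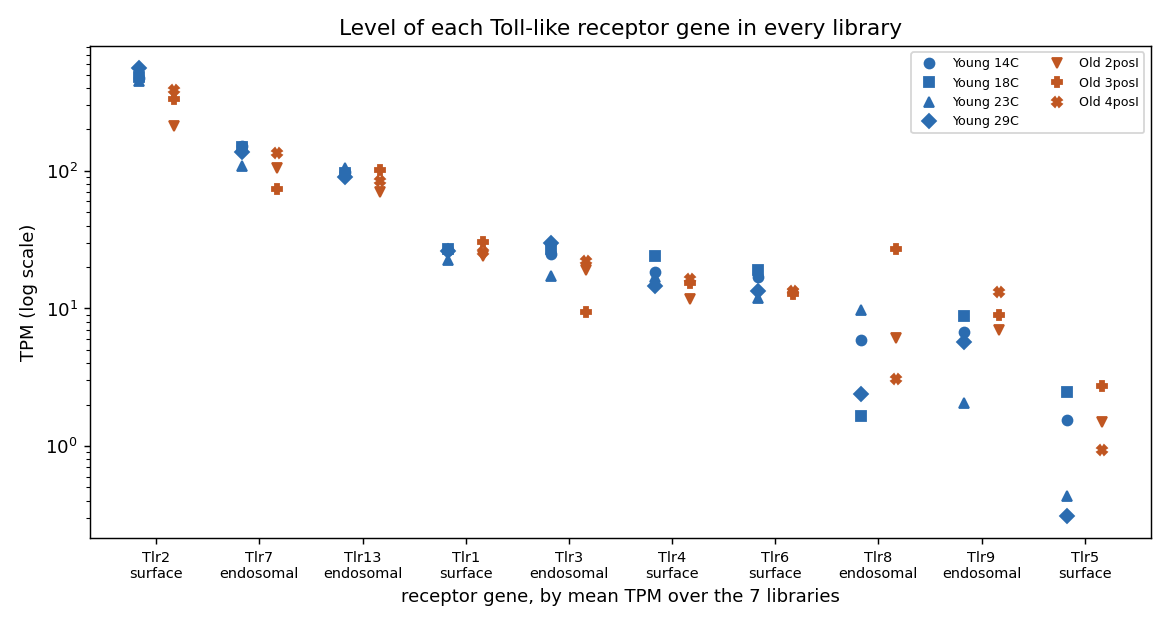
Each point is the TPM of a receptor gene (log scale, vertical axis) in a library, with young mice in blue and old mice in orange and the genes ordered by their mean over the 7 libraries. Tlr2 stands above all others, from 212 to 557 TPM with the old libraries below the young, and the old library 3posI is the highest point for Tlr8 at 27.2 TPM.

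Whether aging changed the receptors in ischemic microglia was asked gene by gene over 18133 tested genes. The quasi-likelihood test of edgeR, adjusted by Benjamini and Hochberg, called none of the 10 receptors at 0.05, against 0.756% of all tested genes (137 genes; 0.551% higher and 0.204% lower in old mice). With each library left out in turn, the count over all tested genes ran from 1 to 156. The old mean was higher for 4 receptors and lower for 6, and the median log2 change of the receptors (log2 of the fold change, old minus young) was -0.12, beside -0.01 for all tested genes. Tlr2, the most abundant receptor, was the only receptor whose old libraries all lay below the young ones, and the only receptor with an unadjusted p under 0.05. Of all tested genes, 8.99% had every old library below every young one and 18.8% had such a p. Without 3posI the count of receptors past the adjusted threshold was again 0, with 4 higher and 6 lower, and Tlr2 was again the only receptor with an unadjusted p under 0.05. Other tools gave the same count of 0 receptors, with DESeq2 calling 7.85% of all tested genes and limma-voom 0.767%.

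**Figure D2:**
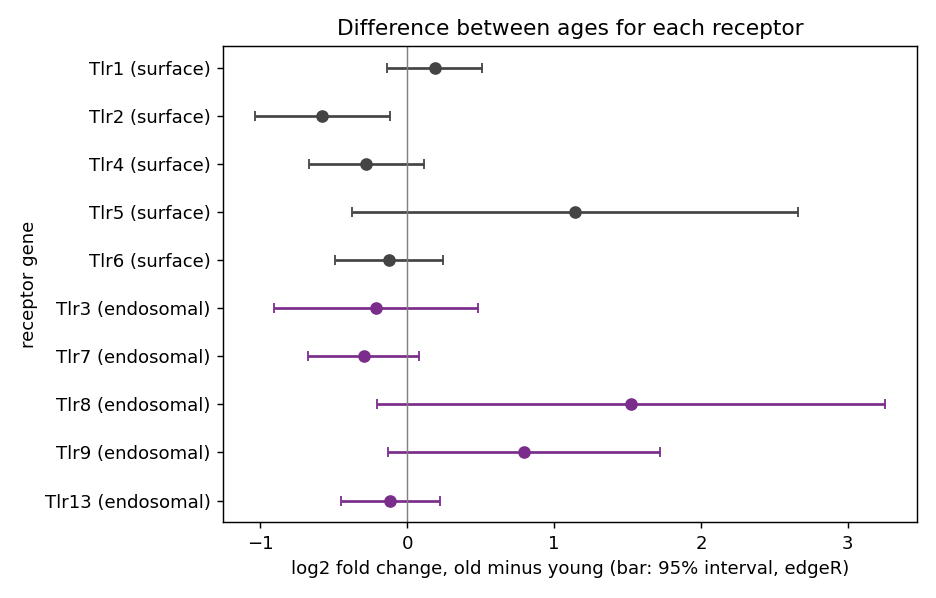
The horizontal axis is the log2 change of each receptor, old minus young, fitted by edgeR on 4 young and 3 old libraries, and bars are 95% intervals of the fit. The interval of Tlr2, from -1.04 to -0.12, is the only interval that does not reach 0, and those of Tlr5 and Tlr8 are the widest.

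Tlr2 recognizes bacterial lipopeptides and several endogenous danger signals as a heterodimer with Tlr1 or Tlr6. Its gene lies at chr3:83836272-83841767 on the minus strand (GRCm38, GENCODE vM21) and has a single annotated transcript, so its counts need no division between isoforms. In young mice the level of Tlr2 was 972 CPM in 14C, 957 CPM in 18C, 915 CPM in 23C and 1229 CPM in 29C. In old mice it was 499 CPM in 2posI, 760 CPM in 3posI and 789 CPM in 4posI. The groups did not overlap, and 2posI was the lowest library. The marker sums of 2posI, 14354 CPM for microglia and 441 CPM for monocytes and macrophages, lay inside the ranges of the young libraries. Of the monocyte list, Ly6c2 (14.9 CPM) and Plac8 (6.71 CPM) were nevertheless above every young library in 2posI. Its sums of astrocyte (77.0 CPM), oligodendrocyte (39.7 CPM), dendritic cell (9.43 CPM), T and NK cell (10.2 CPM) and neuron markers (3.12 CPM) also lay above the young ranges. The part of all these cells in the Tlr2 value was not tested. The mean was 1018 ± 143 CPM (SD, n = 4) in young and 682 ± 160 CPM (n = 3) in old mice, 1.49-fold lower in old, with a log2 change of -0.58 (SE 0.20, 95% interval -1.04 to -0.12). The difference had an unadjusted p of 0.0198 and an adjusted p of 0.182 by edgeR over all tested genes, and so did not pass the threshold. With each library left out in turn, the log2 change of Tlr2 lay between -0.70 and -0.39, and without 3posI it was -0.66. It was -0.39 without 2posI and -0.47 without 29C, with unadjusted p values of 0.0649 and 0.0553 by edgeR. TPM showed the same separation, from 448 to 557 TPM in young and from 212 to 390 TPM in old mice.

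The bases just upstream of Tlr2 are shown because they carry a match to the NF-kB site, the element through which these receptors act on their own target genes. The stretch chr3:83841768-83841858 on the minus strand (RefSeq promoter table, GRCm38.p6) precedes both the RefSeq and the GENCODE start of the gene, and capitals mark a run of 11 bases in which 2 matches to the NF-kB motif overlap.
Tlr2: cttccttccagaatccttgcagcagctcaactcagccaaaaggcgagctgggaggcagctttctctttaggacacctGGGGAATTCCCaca
Over the 250 bases before the start, both strands searched, 7.25% of 32851 mouse promoters held an NF-kB match. The table gave 10 promoters of 8 receptor genes, and those of Tlr2 and Tlr3 held such a match. It had no entry for Tlr4 and Tlr7, which were therefore not searched. GAGGAA, the core of sites of the myeloid factor PU.1, was present upstream of Tlr1, Tlr8, Tlr9 and Tlr13 and in 23.3% of all promoters. The core of the interferon-stimulated response element, spelled GAAA, any 2 bases and GAAA, was present upstream of Tlr6 and in 2.98% of all promoters. For Tlr1 and Tlr6 the match lay in a single promoter, and the other listed promoter of each gene held none. These matches are letters in a window and no binding was measured.

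Tlr1 and Tlr6, the partners of Tlr2 for triacylated and diacylated lipopeptides, are neighbours on chromosome 5, Tlr1 at chr5:64924679-64933563 and Tlr6 at chr5:64952031-64960097, both on the minus strand. Their transcripts share 454 stretches of 50 bases, the only sharing found among the 66 pairs formed by 12 mouse receptor genes. The longest identical run, 229 bases inside both coding sequences, spans chr5:64925537-64925765 in Tlr1 and chr5:64953828-64954056 in Tlr6 (GRCm38, GENCODE vM21 transcripts). It is shown because a read inside it cannot be assigned to either gene.
Tlr1 and Tlr6: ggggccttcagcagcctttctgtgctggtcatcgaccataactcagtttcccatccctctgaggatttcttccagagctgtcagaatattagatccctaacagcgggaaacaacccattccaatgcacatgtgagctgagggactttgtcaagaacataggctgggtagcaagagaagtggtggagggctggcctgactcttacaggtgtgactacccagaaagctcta
The expected counts bore the mark of this sharing. Neither gene had a whole number of counts in any of 7 libraries, while the sum of both was whole in 7 of 7 (tolerance 0.001 counts), so their reads had been divided between them by the quantification.

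The level of Tlr1 was 50.4, 47.3, 42.0 and 53.1 CPM in the young libraries 14C, 18C, 23C and 29C and 52.9, 64.5 and 47.1 CPM in the old libraries 2posI, 3posI and 4posI. The highest value belonged to 3posI and the groups overlapped, with a log2 change of 0.19 (SE 0.14) and an adjusted p of 0.507 by edgeR. Without 3posI the log2 change of Tlr1 was 0.05, and without 4posI 0.28. The level of Tlr6, in the same order, was 30.9, 31.5, 21.0 and 26.9 CPM in young and 27.1, 24.4 and 24.3 CPM in old mice. All old values lay inside the young range, and the log2 change was -0.13 (SE 0.16, 95% interval -0.49 to 0.24), or between -0.24 (without 23C) and -0.05 (without 18C) with a library left out. Because the division of reads could move counts from either gene to the other, both were also summed, a choice made after the data were seen. The sum was 75.8 ± 8.56 CPM (SD, n = 4) in young and 80.1 ± 8.75 CPM (n = 3) in old mice, with a log2 change of 0.08 (SE 0.13) and an adjusted p of 0.784 by edgeR.

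Tlr4, the receptor of lipopolysaccharide, lies at chr4:66827584-66930284 on the plus strand. Its level was 48.8, 60.7, 43.7 and 38.4 CPM in 14C, 18C, 23C and 29C and 34.0, 42.5 and 41.9 CPM in 2posI, 3posI and 4posI. The old libraries overlapped the lower part of the young range, with a log2 change of -0.28 (SE 0.17, 95% interval -0.67 to 0.11, adjusted p 0.415 by edgeR). For Tlr4 the log2 change was -0.14 without 18C and -0.18 without 2posI. Tlr5, the flagellin receptor at chr1:182954788-182976044 on the plus strand, had 26 to 152 counts in young and 95 to 241 counts in old libraries. Its level was 2.46, 3.31, 0.629 and 0.544 CPM in young and 3.53, 5.98 and 1.99 CPM in old mice. The young libraries split into a higher and a lower pair, 3posI was the highest library, and the groups overlapped. The log2 change of Tlr5 was 1.14 (SE 0.67) with an interval from -0.38 to 2.66, so that neither a small decrease nor a several-fold increase lay outside it, and it was 0.67 without 3posI and 1.66 without 18C. It was 0.71 with the effective length as an offset and 0.38 on log2(TPM + 1).

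Among the endosomal receptors, Tlr7 and Tlr13 were the most abundant by TPM. Tlr7 binds single-stranded RNA and lies at chrX:167304929-167330558 on the minus strand. Its level was 204, 203, 162 and 203 CPM in young and 160, 124 and 187 CPM in old mice. Of the young libraries only 23C fell within the old range, and 3posI had the lowest level. The means were 193 ± 20.8 CPM and 157 ± 31.8 CPM, with a log2 change of -0.30 (SE 0.17, adjusted p 0.372 by edgeR), and -0.15 without 3posI or -0.45 without 4posI. Tlr13, the sensor of bacterial ribosomal RNA at chrX:106143204-106160493 on the plus strand, was at 274, 261, 290 and 270 CPM in young and at 218, 308 and 233 CPM in old mice. The old libraries lay on both sides of the young range, 3posI above it and the other two below. The log2 change of Tlr13 was -0.11 (SE 0.15, adjusted p 0.715), and -0.28 without 3posI (adjusted p 0.299 by edgeR). Without 2posI it was -0.02 (adjusted p 0.969) and without 4posI -0.06.

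Tlr3 binds double-stranded RNA and is the family member that signals through TRIF alone. It lies at chr8:45395665-45411080 on the minus strand, and part of its reads had been divided with the antisense gene Gm45542, which held at most 9.12 counts in a library. Without strand information, reads of the 2 genes cannot be told apart where they overlap. Its level was 45.7, 49.8, 29.7 and 63.1 CPM in young and 49.0, 23.9 and 49.0 CPM in old mice. The old libraries 2posI and 4posI lay in the middle of the young range, and 3posI was the lowest of all. The log2 change of Tlr3 was -0.21 (SE 0.31, adjusted p 0.746 by edgeR) and turned to 0.06 without 3posI (adjusted p 0.934), so its direction rested on that library. With the effective length as an offset the log2 change of Tlr3 was -0.45, and on log2(TPM + 1) it was -0.58.

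Tlr8 and Tlr9 were the least abundant endosomal receptors. Tlr8, at chrX:167242696-167264329 on the minus strand, recognizes RNA degradation products in human cells, and its ligand range in the mouse is narrower. Its level was 10.1, 3.26, 13.5 and 4.69 CPM in young and 10.5, 52.4 and 5.29 CPM in old mice. The value of 3posI was 3.89 times the next highest, and the other 2 old libraries lay inside the young range. The log2 change was 1.52 (SE 0.76, adjusted p 0.320 by edgeR) with 3posI and -0.004 without it (adjusted p 0.998). The markers of monocytes and border-associated macrophages were highest in the same library, and their part in the Tlr8 value was not tested.

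Tlr9, the receptor of unmethylated CpG DNA at chr9:106222598-106226883 on the plus strand, has a single annotated transcript. Its level was 16.1, 20.5, 4.88 and 14.6 CPM in young and 18.9, 23.6 and 30.6 CPM in old mice. Only the young library 18C exceeded the lowest old library, and 23C was far below the rest. The means were 14.0 ± 6.59 CPM (SD, n = 4) and 24.3 ± 5.90 CPM (n = 3), 1.74-fold higher in old, with a log2 change of 0.80 (SE 0.41, 95% interval -0.13 to 1.72) and an adjusted p of 0.332 by edgeR. The log2 change of Tlr9 lay between 0.51 and 1.04 with each library left out in turn and did not pass the threshold in any of these fits. It was 0.51 without 23C and 0.82 without 3posI.

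The mouse has a further pair of receptor genes that were not part of the set. Tlr11, a sensor of profilin, had 2 to 13 counts in a library, with 6, 7, 5 and 2 counts in young and 13, 13 and 9 counts in old mice. It passed the count filter only through old libraries, so no difference between the ages is read from it. Tlr12, its partner, was at 13.2, 19.9, 5.41 and 15.9 CPM in young and 25.8, 8.12 and 29.3 CPM in old mice. Here 3posI and 23C were the lowest of their groups, and the log2 change was 0.63 (adjusted p 0.521), or 1.02 without 3posI.

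The surface and the endosomal receptors were then set against each other within each library. By summed TPM, the surface receptors reached 534, 551, 500 and 612 TPM in young and 262, 396 and 446 TPM in old mice, with every old library below every young one. The endosomal receptors reached 288, 283, 242 and 265 TPM in young and 207, 220 and 259 TPM in old mice, and here the groups overlapped. The sum of all 10 receptors was 819 ± 56.3 TPM (SD, n = 4) in young and 597 ± 120 TPM (n = 3) in old mice, again without overlap. Tlr2 carried this separation, since the surface sum without Tlr2 was 60.6 ± 9.52 TPM in young and 55.9 ± 5.62 TPM in old mice and the groups overlapped. Tlr2 made up 57.3%, 57.3%, 60.4% and 63.5% of the summed receptor TPM in the young libraries and 45.2%, 54.4% and 55.3% in the old ones. The ratio of endosomal to surface TPM was 0.493 ± 0.0452 in young and 0.642 ± 0.129 in old mice, with the old libraries all above the young. It was 0.790 in 2posI, while 3posI (0.556) and 4posI (0.581) lay close to the young range of 0.434 to 0.539.

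**Figure D3:**
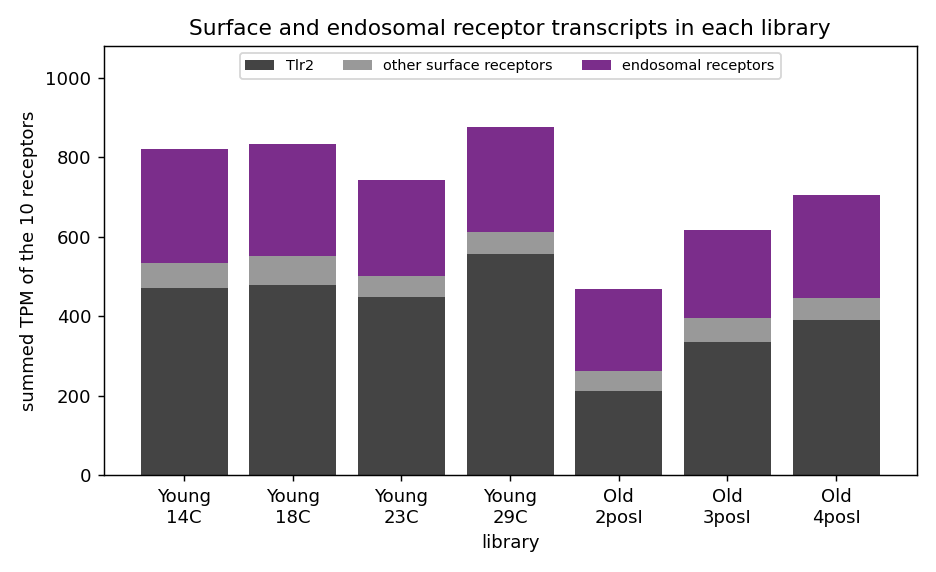
Bars stack the TPM of Tlr2, of the other surface receptors and of the endosomal receptors in each of the 7 libraries, and the vertical axis is their sum from 0. The old bars, at 469, 617 and 706 TPM, all end below the lowest young bar at 742 TPM, and the dark segment of Tlr2 is shorter in each of them.

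A measure that gives each receptor the same weight was also formed. The mean log2 CPM of the endosomal receptors minus that of the surface receptors was 0.24, -0.14, 0.40 and 0.53 in young and 0.39, 0.38 and 0.44 in old mice. The old mean was higher by 0.15, within the young spread, and the groups overlapped. With the scarce Tlr5 left out, the values were -0.81, -1.11, -0.98 and -0.94 in young and -0.47, -0.39 and -0.62 in old mice. Every old library then lay above every young one, and the difference of the means was 0.47, so the separation of this measure depended on leaving out Tlr5. Tlr8 and Tlr9, the scarce endosomal receptors, stayed in it with log2 changes of 1.52 and 0.80. The more abundant Tlr3, Tlr7 and Tlr13 had log2 changes of -0.21, -0.30 and -0.11. The measure was not formed without Tlr8 and Tlr9. The counts were alike on both sides, since among the 5 surface and among the 5 endosomal receptors 2 had a higher and 3 a lower mean in old mice.

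How similarly the receptors varied over the 7 libraries was described by the root-mean-square difference of their centred log2 CPM. Tlr6 and Tlr7 were nearest to each other (0.210), as were Tlr1 and Tlr13 (0.212), each a surface receptor with an endosomal one. The nearest to Tlr4 was Tlr6 (0.232), to Tlr3 was Tlr7 (0.278) and to Tlr2 was Tlr13 (0.316). Tlr9 (nearest Tlr1, 0.703), Tlr5 (nearest Tlr9, 0.875) and Tlr8 (nearest Tlr1, 1.12) stood farther from all others, and these are also the 3 receptors with the lowest TPM. The same 7 libraries, and their depth, underlie all these values. Without 3posI, Tlr6 and Tlr7 were again nearest to each other (0.149), but Tlr1 was nearest to Tlr6 (0.160), Tlr13 to Tlr7 (0.174), Tlr4 to Tlr7 (0.218), Tlr3 to Tlr1 (0.235) and Tlr9 to Tlr3 (0.615), so most of these neighbours rested on that library. The nearest to Tlr8 was then Tlr13 (0.729). Reads of Tlr1 and Tlr6 had been divided between these genes by the quantification, so their patterns are not independent measurements.

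The quantification also gives each gene an effective length, the average length of its transcripts weighted by their estimated abundance, which moves when the mix of isoforms moves. Tlr3, with 9 annotated transcripts of 382 to 4407 bases, had effective lengths of 2641, 2733, 2514 and 2839 bases in young and 3240, 3318 and 3263 bases in old mice. Tlr5, with 5 annotated transcripts of 498 to 3818 bases, had 2296, 1987, 2104 and 2390 bases in young and 2986, 2843 and 3150 bases in old mice. In both, every old library was above every young one, 1.22-fold for Tlr3 and 1.36-fold for Tlr5 by the means. Among 12430 tested genes with 2 or more annotated transcripts, 12.7% had every old library above every young one and 6.13% every old library below, and no test compared the receptors' 2 of 8 with that share. The length ratios of Tlr3 and Tlr5 exceeded those of 91.9% and 96.6% of these genes, whose median ratio was 1.00. The Tlr5 lengths rested on few counts, with 33 in 23C and 26 in 29C, and no comparison was made with genes of similar count. The shift bears on TPM, since a longer effective length lowers it at a given count, and Tlr3 stood at 24.7 ± 5.44 TPM in young and 16.8 ± 6.58 TPM in old mice although its CPM values were 47.1 ± 13.8 and 40.6 ± 14.5. The reads that would tell isoforms apart were not analysed here, and the lengths are estimates of the quantification.

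**Figure D4:**
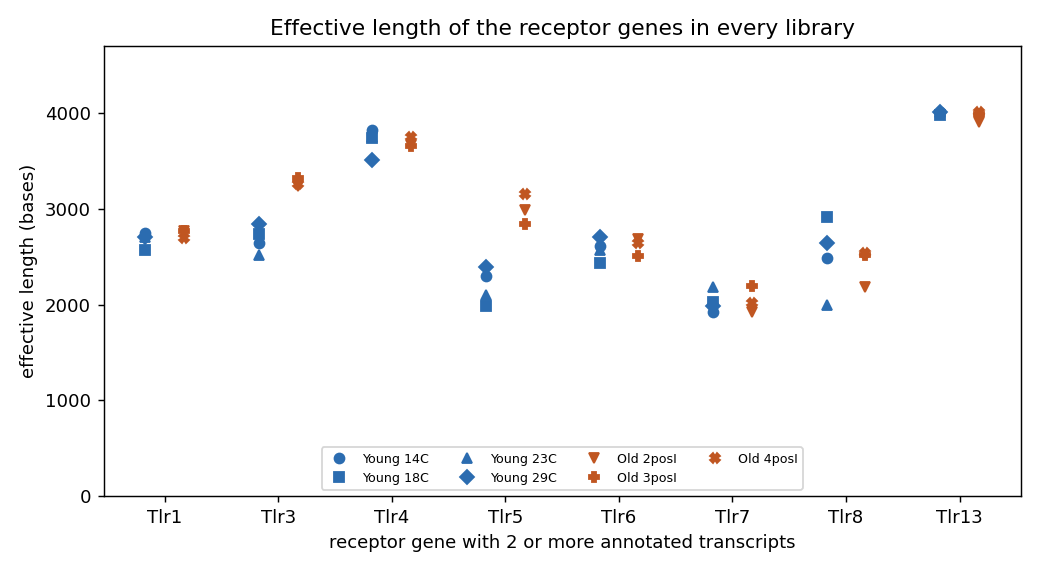
The effective length in bases (vertical axis, from 0) of the 8 receptor genes with 2 or more annotated transcripts is plotted for each library, young in blue and old in orange. For Tlr3 and Tlr5 the 3 old points lie above the 4 young ones, while for the other genes the ages overlap.

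The receptors depend on other proteins for ligand delivery, trafficking and signalling, and 68 such genes were grouped by role. All 68 passed the count filter and none passed an adjusted p of 0.05 by edgeR. An unadjusted p under 0.05 was reached by 7 with a higher and 11 with a lower old mean, beside 10.1% and 8.67% of all tested genes, and the median log2 change was -0.14. In 6 genes every old library was above every young one and in 10 every old library was below, beside 8.61% and 8.99% of all tested genes. Without 3posI, 20 of the 68 had such a p, 5 with a higher and 15 with a lower old mean, beside 17.5% of all genes tested in that fit. The median log2 change was then -0.16, and 11 of the 68 genes changed direction. Expected counts were not whole in any library for 12 of the 68 genes (Cd180, Ctsb, Cxcl10, Dnase2a, Hsp90b1, Ikbkg, Irak2, Irak4, Irf5, Ripk1, Tirap and Ube2n), whose reads had in part been divided with other genes, so their values are less certain. The same caution holds for Slc15a4 and Cxcl2 (whole in 1 library), Myd88 and Rnf216 (2 libraries) and Tab2 and Irf3 (3 libraries).

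**Figure D5:**
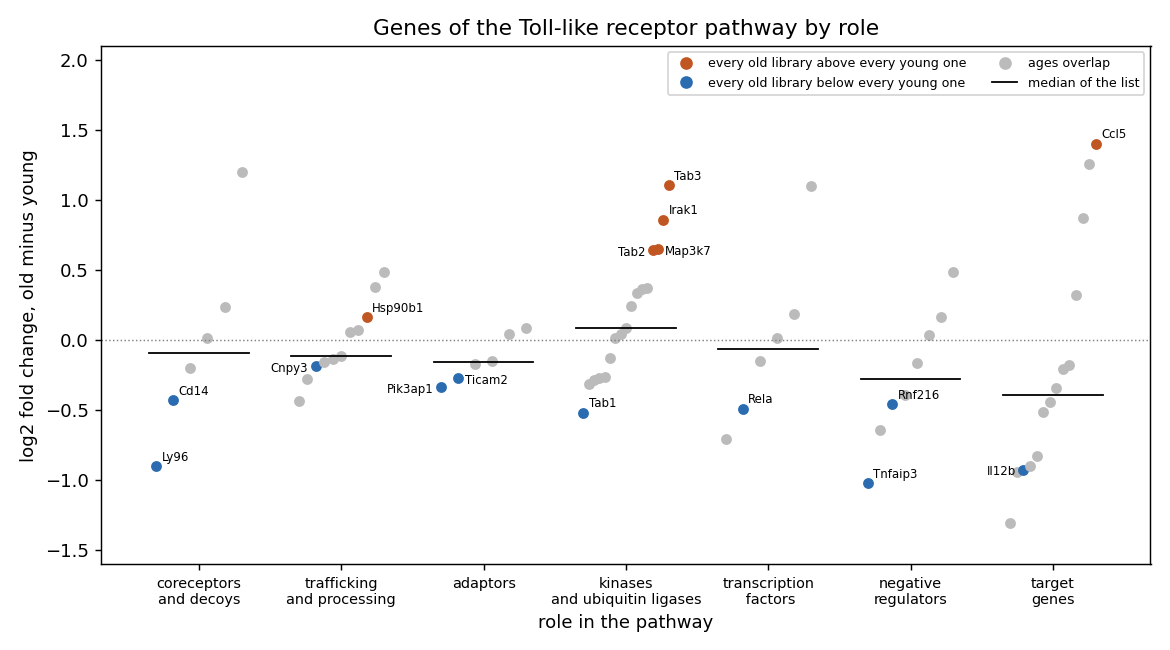
Each point is a gene of the pathway list, placed by role, with its log2 change (old minus young, edgeR) on the vertical axis and the median of each role as a line. Named points are genes whose old libraries all lie above (orange) or below (blue) the young ones, from Tab3 and Ccl5 at 1.11 and 1.40 to Tnfaip3 at -1.02, and none of the genes passed the adjusted threshold.

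Among the 6 coreceptors and decoys, Ly96, which encodes the MD-2 subunit that holds lipopolysaccharide on Tlr4, was at 20.1, 20.0, 11.8 and 15.7 CPM in young and 9.29, 9.41 and 8.44 CPM in old mice. The groups did not overlap, and the log2 change was -0.90 (SE 0.21) with an adjusted p of 0.0857 by edgeR. Cd14, the coreceptor that passes ligands to Tlr4 and Tlr2, was also below the young range in every old library. It was at 1917 ± 164 CPM (SD, n = 4) against 1423 ± 471 CPM (n = 3), with an adjusted p of 0.371 by edgeR. Much of this difference lay in 2posI (889 CPM), since 3posI (1780 CPM) and 4posI (1599 CPM) were closer to the lowest young library (1818 CPM). Cd36, a scavenger receptor that assists Tlr2, was at 28.1 ± 18.4 CPM in young and 64.6 ± 61.1 CPM in old mice and was highest in 3posI at 134 CPM. Without 3posI the old mean of Cd36 was 30.1 CPM and its log2 change 0.10. Ly86, the partner of the Tlr4 homologue Cd180, had overlapping levels of 1378 ± 292 CPM and 1201 ± 469 CPM, and its log2 change turned from -0.20 to 0.06 without 3posI. The role had 3 genes with a higher and 3 with a lower old mean.

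Of the 11 genes for trafficking and processing, Slc15a4, an endolysosomal transporter needed for Tlr7 and Tlr9 responses, had the smallest p. It was at 89.6 ± 11.2 CPM in young and 66.5 ± 9.68 CPM in old mice, overlapping, with a log2 change of -0.43 and an adjusted p of 0.174 by edgeR. Cnpy3, a chaperone of the receptors, was at 108 ± 5.24 and 94.6 ± 5.64 CPM with the old libraries below the young. Its partner chaperone Hsp90b1, outside the naming rule and chosen after its values were seen, was at 835 ± 48.2 and 936 ± 26.9 CPM with the old libraries above, and its adjusted p was 0.517. The proteases that trim the endosomal receptors were abundant and overlapped between the ages. Ctss stood at 6184 ± 1154 CPM in young and 8653 ± 1579 CPM in old mice, Ctsl at 3028 ± 415 and 2504 ± 169 CPM, and the related Ctsb at 17732 ± 3009 and 18612 ± 2946 CPM. Ctsb had a log2 change of 0.07 with 3posI and -0.04 without it.

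The adaptors differed little by size. Myd88, used by all receptors of the set except Tlr3, was at 95.8 ± 3.46 CPM in young and 102 ± 17.7 CPM in old mice, with a log2 change of 0.09 that was -0.06 without 3posI. Pik3ap1, which links the receptors to PI3-kinase, and Ticam2, which bridges Tlr4 to TRIF, had old libraries below all young ones. Pik3ap1 was at 192 against 152 CPM by the means (log2 change -0.33, adjusted p 0.20 by edgeR). Ticam2 was at 37.3 ± 2.27 against 30.9 ± 1.35 CPM (log2 change -0.27, adjusted p 0.221). Ticam1, which encodes TRIF, and Tirap overlapped between the ages, at log2 changes of -0.15 and -0.17, or -0.09 and -0.39 without 3posI.

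The smallest p values of the whole list were found among the 17 kinases and ubiquitin ligases, 7 of which had an unadjusted p under 0.05, beside 18.8% of all tested genes. Irak1, the kinase recruited by MyD88, was at 17.0, 20.4, 14.6 and 13.1 CPM in young and 30.1, 32.5 and 25.9 CPM in old mice. The groups did not overlap, and the log2 change was 0.86 (SE 0.17) with an adjusted p of 0.0655 by edgeR. Map3k7, which encodes the kinase TAK1, was at 13.4 ± 1.39 CPM in young and 21.0 ± 1.29 CPM in old mice, with a log2 change of 0.65 and an adjusted p of 0.0685. The TAK1-binding proteins pointed in different directions. Tab3 was at 2.83 ± 0.626 against 6.09 ± 0.409 CPM (log2 change 1.11, adjusted p 0.0710), and Tab2, named after its values were seen, at 44.5 ± 7.42 against 69.4 ± 10.5 CPM (0.64, adjusted p 0.0984). Tab1 was at 21.9 ± 0.626 against 15.3 ± 0.787 CPM (log2 change -0.52, adjusted p 0.0794 by edgeR). For each of these 5 genes the groups did not overlap. Irak2 and the ubiquitin-conjugating enzyme Ube2n had the highest mean TPM of the role and overlapped between the ages, with adjusted p values of 0.355 and 0.245. Irak2 had a log2 change of -0.31, and -0.52 without 3posI (adjusted p 0.120). The median of the role was 0.09 with 3posI and -0.06 without it.

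Among the 6 transcription factors, Rela, the p65 subunit of NF-kB, was at 143, 146, 139 and 126 CPM in young and 90.9, 98.4 and 107 CPM in old mice. The groups did not overlap, and the log2 change was -0.49 (SE 0.12) with an adjusted p of 0.0885 by edgeR. Rel, another NF-kB subunit, was at 201 ± 53.0 and 123 ± 34.4 CPM with overlap (log2 change -0.71, adjusted p 0.201). Irf7, the factor that amplifies type I interferon output, was at 115 ± 67.5 CPM in young and 246 ± 97.8 CPM in old mice, with overlap, a log2 change of 1.10 and an adjusted p of 0.208. It was highest in 3posI at 359 CPM, and without that library the old mean was 190 CPM and the log2 change 0.73 (adjusted p 0.399). Irf5, which acts downstream of MyD88, was at 242 ± 25.2 and 218 ± 18.1 CPM.

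The 8 negative regulators included Tnfaip3, the deubiquitinase A20, which stood at 857, 804, 651 and 749 CPM in young and at 216, 269 and 647 CPM in old mice. The old libraries were all below the young ones, though 4posI was close to 23C, and the log2 change was -1.02 (SE 0.36) with an adjusted p of 0.181 by edgeR. Without 4posI the log2 change of Tnfaip3 was -1.66 (adjusted p 0.0453 by edgeR), in a fit that called 76 of 17913 genes. It was -0.82 without 3posI (adjusted p 0.303 by edgeR). Rnf216, a ubiquitin ligase that targets the receptors for degradation, was at 48.2 ± 5.47 and 35.1 ± 4.59 CPM without overlap (log2 change -0.46, adjusted p 0.149). Nfkbia, the inhibitor of NF-kB, overlapped between the ages, at 1641 ± 280 and 1250 ± 787 CPM. Its log2 change was -0.39, or -0.13 without 3posI. The overlap of Nfkbia came through 4posI (2157 CPM), since 2posI (842 CPM) and 3posI (750 CPM) lay below every young library (1229 to 1855 CPM). Sigirr and Tollip also overlapped, with log2 changes of -0.64 and -0.17, or -1.11 (unadjusted p 0.00657, adjusted p 0.132 by edgeR) and -0.28 without 3posI.

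Of the 14 target genes, 10 had a lower old mean, and the median log2 change was -0.39. Ccl5, a T cell chemoattractant, was at 10.8, 31.3, 9.66 and 35.1 CPM in young and 47.5, 43.6 and 80.9 CPM in old mice. Its groups did not overlap, and the log2 change was 1.40 (SE 0.48) with an adjusted p of 0.173 by edgeR. Il12b, a subunit of interleukin 12, was at 6.81 ± 1.28 and 3.58 ± 2.28 CPM, with the old libraries below the young. Its lowest value was in 2posI (0.984 CPM), while 3posI (5.26 CPM) and 4posI (4.49 CPM) were nearer the young range of 5.98 to 8.73 CPM. Nfkbiz, a co-activator induced by these receptors, and Ptgs2, which encodes cyclooxygenase 2, had log2 changes of -0.90 and -0.82. Both overlapped, with adjusted p values of 0.232 and 0.343 by edgeR. Ptgs2 was far lower in 2posI (20.9 CPM) than in 3posI and 4posI (95.6 and 84.5 CPM), against 95.3 to 137 CPM in young mice. Nfkbiz overlapped through 4posI (756 CPM, against 270 and 272 CPM in the other old libraries), and without 4posI its log2 change was -1.58 (adjusted p 0.0453 by edgeR). That fit called 76 of 17913 genes. The log2 change of Nfkbiz was -0.65 without 3posI (adjusted p 0.385 by edgeR). The chemokine genes Ccl3 and Ccl4 had the highest TPM of the role and overlapped, at 1006 ± 260 and 873 ± 435 CPM for Ccl3 and 1702 ± 441 and 1341 ± 747 CPM for Ccl4. Without 3posI their log2 changes, -0.21 and -0.34 with all libraries, were 0.10 and -0.01. The old libraries 2posI, 3posI and 4posI were at 837, 457 and 1326 CPM for Ccl3 and 1250, 643 and 2129 CPM for Ccl4. The means of both thus also depended on 4posI, in the other direction.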

How the data were processed

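RNA of sorted microglia from 7 mice was sequenced, 1 library per mouse. The authors checked reads with FastQC 0.11.5, trimmed them with skewer, mapped them with STAR to GRCm38 and quantified genes with RSEM on GENCODE m15, and deposited expected counts, TPM, FPKM and effective lengths per gene. For STAR and RSEM no version is stated in the sources used here. FPKM values as deposited entered no result.

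Expected counts were rounded. A gene was kept if any library gave it more than 10 expected counts (18173 genes). Removing the Y chromosome and the mitochondrial genome left 18133 genes, 574 of them on X. Unlike in the study, X was kept, since Tlr7, Tlr8 and Tlr13 lie there. Ages were compared with TMM factors and the quasi-likelihood test of edgeR 4.0.16 (R 4.3.3), adjusted over all tested genes at 0.05. The scripts were tested on simulated data. Alternatives used DESeq2 1.42.0 and limma 3.58.1, other factors and filters, log2(TPM + 1) and each library left out. The level order and the nearest patterns without 3posI were added after the data were seen. Apart from the alternatives on log2(TPM + 1) and with an effective-length offset, TPM and the deposited effective lengths were described without tests. Coordinates are from GENCODE vM21.

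The receptors, role lists and markers were chosen with earlier results of these data known. In each role list, genes past the threshold, the 4 with the smallest p and the 2 with the highest TPM were named. P-values measure the spread between mice. Intervals do not cover the amplification of cDNA without molecular identifiers. Single markers of the microglia and B cell lists are not reported here and did not enter those sums.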

Additional observations from a re-analysis of the deposited data

Results flagged for a closer look

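Among the 4 young libraries, 7 of 83 receptor and pathway results had a library whose gap to its nearest neighbour took more than 0.829 of the group's range, Dixon's 95% critical value for 4 samples. Chance alone gives about 4.15 such results. Tlr7 had the widest relative gap (0.965), with 162 CPM in 23C and 203 to 204 CPM in the others. 23C was also low for Socs1, a suppressor of cytokine signalling (3.77 CPM against 6.26 to 6.48 CPM, 0.916), and for Cyld, a deubiquitinase (35.9 CPM against 45.7 to 47.6 CPM, 0.838). 29C was high for Cxcl10, an interferon-induced chemokine (217 CPM against 118 to 126 CPM, 0.920), for Il12b (8.73 CPM against 5.98 to 6.31 CPM, 0.881) and for Cd14 (2160 CPM against 1818 to 1870 CPM, 0.849). It was low for Irf3, a factor downstream of TRIF (57.6 CPM against 61.6 to 62.4 CPM, 0.832). Groups of 3 were not examined in this way.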

How the results depend on the processing

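No receptor passed the adjusted threshold in the 19 alternatives run. Each receptor kept its direction in all of those that tested it (18 for Tlr7, Tlr8 and Tlr13) except Tlr3 (0.0581) and Tlr8 (-0.0040) without Old replicate 2, the library 3posI. With a library left out, the log2 change of Tlr3 ran from -0.3801 to 0.0581 and that of Tlr8 from -0.0040 to 1.9887. The log2 change of Tlr2 lay between -0.68 and -0.55 in the other settings, with adjusted p values from 0.0642 (DESeq2) to 0.204. The count of genes past the threshold was 137 and became 308 by limma-voom with sample quality weights, 1423 by DESeq2, 214 with an effective-length offset, 64 by limma on log2(TPM + 1), 298 with no filter on low counts and 216 with a mean CPM of at least 1. Higher and lower calls split 100 to 37 in the reported fit, 765 to 658 by DESeq2, 199 to 109 with quality weights, 137 to 77 with the offset, 32 to 32 on TPM, 164 to 134 with no filter and 140 to 76 with the CPM minimum. With 1 library left out the count ran from 1 to 156, and it was 1 without 14C, 18C or 2posI, 2 without 29C, 15 without 23C and 76 without 4posI. Of the pathway list, 9 genes were called by DESeq2 (Irak1, Map3k7, Tab1, Tab2, Tab3, Rela, Ly96, Tnfaip3 and Ccl5), where 7.85% of all tested genes were called, 1 with the offset and 1 with no filter (Irak1 in both), and 0 to 2 with a library left out, the 2 being Tnfaip3 and Nfkbiz without 4posI. The causes were not tested. The endosomal minus surface difference was 0.47 with Tlr5 left out but Tlr8 and Tlr9 kept, and 0.0138 to 0.2363 with a library left out. No paired analysis was possible because the labels name mice without tying young to old ones. With 3 and 4 mice, the intervals of Tlr5, Tlr8 and Tlr9 remained wide, and low counts limit Tlr5 and Tlr11.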
